A study of Homo sapiens with 12 samples.

Results

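The SLC30 family, also called the zinc transporters or ZnTs, was followed in HCC38 cells exposed to erastin, tubacin or both drugs. Its 10 members, SLC30A1 to SLC30A10, were taken by gene symbol from the platform annotation, and all 10 were found among 22392 genes with a probe set of their own. Each member had exactly 1 probe set, so no choice between probe sets entered the values.

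RNA was measured on 12 arrays in 4 groups of 3 samples each: control, which received DMSO, 5 µM erastin (E), 5 µM tubacin (T), and 5 µM erastin with 5 µM tubacin (E+T). HCC38 is an established triple-negative breast cancer cell line, meaning that it lacks the estrogen, progesterone and HER2 receptors. Erastin blocks the carrier that brings cystine into the cell, and tubacin inhibits the deacetylase HDAC6. The sample labels give 18 h for all treatments, whereas the methods give a longer time for the same arrays. The source entries number the line upward from sample to sample, while the title and cell line entries give HCC38 for all 12, and all were taken as HCC38. All groups share 1 line, 1 dose of each drug and 1 time.

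Most SLC30 proteins move zinc out of the cytosol, either across the plasma membrane or into vesicles, the Golgi and other organelles, in exchange for protons. SLC39 proteins (ZIPs) move zinc the other way, and metallothioneins bind it in the cytosol. When zinc in the cell is high, the transcription factor MTF1 binds short DNA elements called metal response elements (MREs) and raises metallothionein genes and SLC30A1. Among the exporters, SLC30A1 sits mainly at the plasma membrane, SLC30A2 and SLC30A4 in vesicles of secretory cells such as those of the mammary gland, and SLC30A5, SLC30A6 and SLC30A7 in the early secretory pathway.

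Values are the RMA values that the authors deposited, on the log2 scale, and a difference of 1 is a 2-fold change. Over all probe sets the array medians lay between 3.06 and 3.12 and the upper quartiles between 5.63 and 5.71, and samples of a group correlated at 0.982 to 0.988 against 0.971 to 0.986 between groups. "Rose" and "fell" are used for an adjusted p under 0.05 in limma, taken over all 22392 genes in 1 fit of the 4 groups. No source describes the 3 samples of a group as separate cultures, and the p-values therefore cover only sample-to-sample spread, some or all of which could be technical. All 7 epithelial markers were above the array median on every array. Of the receptor genes ESR1 was below it on every array and PGR above it. Of the markers of other cell types, the leukocyte genes PTPRC and CD3E, the endothelial genes CDH5 and VWF and the fibroblast genes DCN and LUM were below it on every array, while CD14 (leukocyte) and COL1A1, COL1A2 and PDGFRB (fibroblast) were above it on every array. With E+T, where 14.0% of all genes rose and 17.1% fell, 5 of the 7 epithelial markers rose, 3 of 5 fibroblast markers fell and 1 rose, and CD14 fell by 1.05 (adjusted p = 0.00723). The part of these shifts in the zinc gene results was not tested.

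The promoters of the 2 members that rose are shown first, because both hold matches to the MRE. The sequences are from RefSeq on GRCh38.p14, each running from 250 bases before the start of transcription to 50 bases after it, 5′ to 3′ on the strand of the gene. Capitals mark each match to the core of the MRE, searched as TGCACNC and TGCGCNC on both strands.
SLC30A1, chr1:211579112-211579411, minus strand: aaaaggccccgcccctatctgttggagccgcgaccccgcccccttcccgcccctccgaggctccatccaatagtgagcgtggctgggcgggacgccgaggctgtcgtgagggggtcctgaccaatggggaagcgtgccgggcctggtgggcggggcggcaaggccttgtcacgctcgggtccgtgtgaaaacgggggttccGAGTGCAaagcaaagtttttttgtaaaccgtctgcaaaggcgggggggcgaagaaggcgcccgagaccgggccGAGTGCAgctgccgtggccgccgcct
SLC30A2, chr1:26046069-26046368, minus strand: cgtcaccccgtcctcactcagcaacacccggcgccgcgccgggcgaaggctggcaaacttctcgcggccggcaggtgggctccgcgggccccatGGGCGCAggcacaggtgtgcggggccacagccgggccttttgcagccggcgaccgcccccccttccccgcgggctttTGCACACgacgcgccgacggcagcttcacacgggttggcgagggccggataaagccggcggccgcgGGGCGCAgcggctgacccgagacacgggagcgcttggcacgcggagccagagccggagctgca
SLC30A1 had 2 matches, at -49 to -43 and at 25 to 31 from the start site, both as the reverse complement of TGCACNC. SLC30A2 had 3 matches, at -156 to -150, -79 to -73 and -13 to -7, of which the middle one reads TGCACAC on the gene's own strand and the other two are reverse complements of TGCGCNC. Of 35116 promoter windows of the same length in the table, 29.6% held at least 1 match and 8.60% at least 2. Promoter windows were found for 9 of the 10 members, 11 windows in all, of which 6 held a match. By gene, 5 of the 9 (SLC30A1, SLC30A2, SLC30A3, SLC30A4 and SLC30A6) held a match. The match is therefore a description of the letters and is not confined to the members that rose, since SLC30A3, SLC30A4 and SLC30A6 hold it as well. SLC30A4 and SLC30A6 have 1 match each, and SLC30A3 has 2 in 1 window and 1 in the other. Any part of the matches in the rises was not tested. The map of matches shows where they lie.

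**Figure D1:**
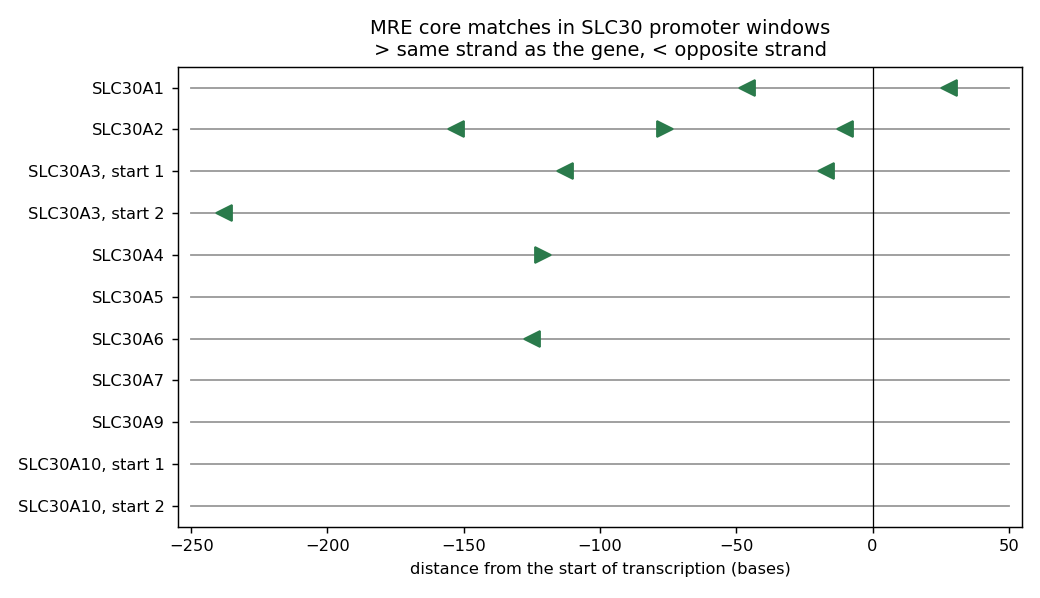
MRE core matches in the 11 promoter windows of 9 SLC30 genes, by distance from the start of transcription in bases. Triangles pointing right lie on the gene's strand and those pointing left on the opposite strand. SLC30A1 has 2 matches and SLC30A2 has 3, and the windows of SLC30A5, SLC30A7, SLC30A9 and SLC30A10 have none.

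SLC30A1, the exporter at the plasma membrane, rose with erastin and rose further when tubacin was added. Its values were 8.94, 8.98 and 8.99 in control, 9.66, 9.55 and 9.56 with erastin, 9.04, 9.03 and 8.95 with tubacin, and 10.66, 10.67 and 10.56 with E+T. Every erastin sample lay above every control and tubacin sample, every E+T sample lay above all others, and control and tubacin overlapped. The change against control was 0.62 (SE 0.07, adjusted p = 0.000377), or 1.53-fold, with erastin. With E+T it was 1.66 (SE 0.07, 95% interval 1.51 to 1.80, adjusted p = 7.75e-08), or 3.15-fold. With tubacin alone the value was 0.04, with an interval of -0.11 to 0.18.

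SLC30A2, the vesicular exporter known for loading zinc into milk, showed the same order of groups from a low start. Its values were 3.66, 3.44 and 3.76 in control, 4.76, 4.48 and 5.28 with erastin, 3.84, 3.71 and 3.70 with tubacin, and 6.85, 6.99 and 6.96 with E+T. The 3 E+T samples stood above the upper quartile of their arrays, and the other 9 samples stood between the array median and the upper quartile. The erastin samples were the most scattered of this gene (SD 0.41, n = 3) but did not overlap control, and tubacin overlapped control. The change was 1.22 (SE 0.17, adjusted p = 0.00178), or 2.32-fold, with erastin and 3.31 (SE 0.17, 95% interval 2.93 to 3.69, adjusted p = 2.57e-07), or 9.93-fold, with E+T. Ordered by the size of the rise with E+T, SLC30A2 was at rank 8 of all 22392 genes and SLC30A1 at rank 139. With tubacin alone SLC30A2 had a value of 0.13, with an interval of -0.25 to 0.51. No background or detection call was used, so the level in control was not shown to be above background, and the folds are those of the probe set values.

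**Figure D2:**
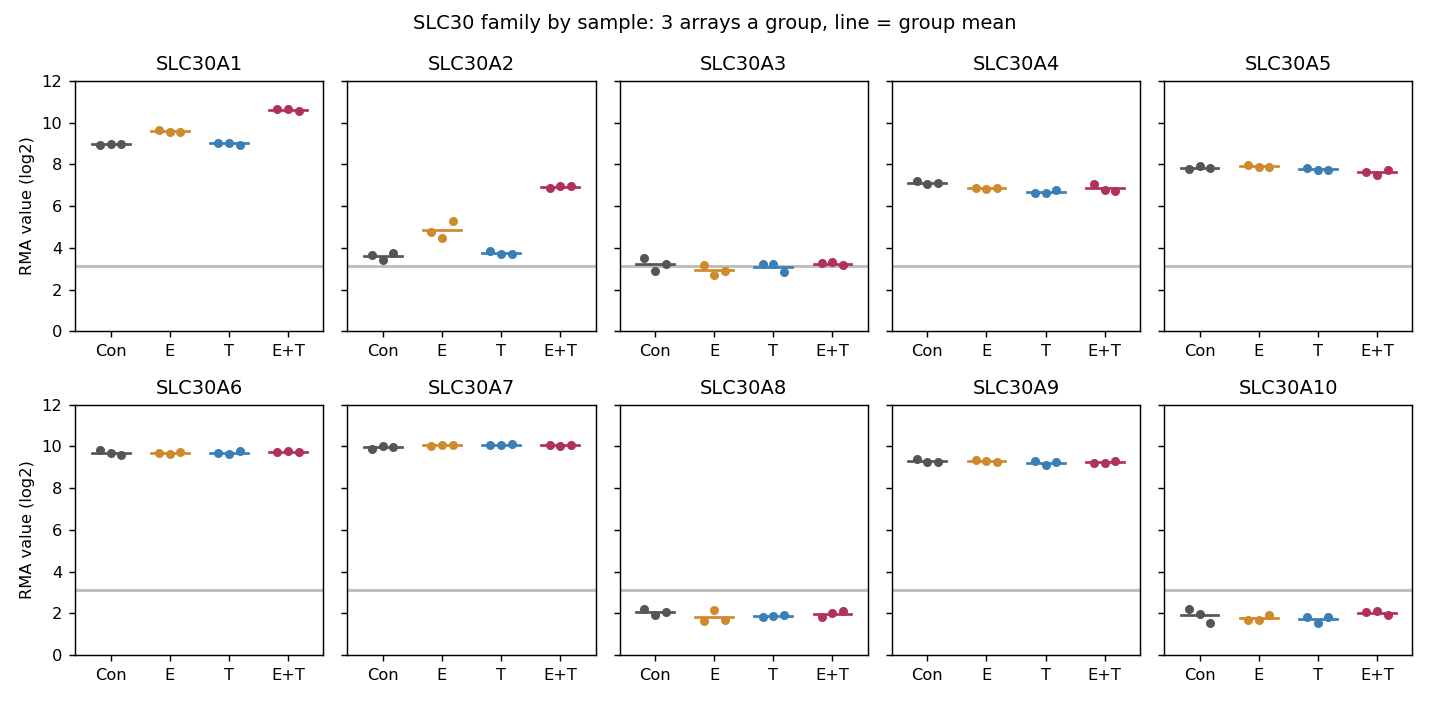
RMA value (log2) of each SLC30 gene on every array, in control (Con), erastin (E), tubacin (T) and erastin plus tubacin (E+T), with 3 points a group and a line at the group mean. The grey line is the range of the array medians, 3.06 to 3.12. SLC30A1 and SLC30A2 step up from Con to E to E+T, while SLC30A8 and SLC30A10 stay under the grey line on every array.

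SLC30A4, an exporter of endosomes and secretory vesicles, was lowest with tubacin. Its values were 7.22, 7.05 and 7.10 in control, 6.87, 6.80 and 6.89 with erastin, 6.65, 6.63 and 6.75 with tubacin, and 7.05, 6.75 and 6.75 with E+T. All treated samples lay below all control samples, although the highest E+T sample (7.046) and the lowest control sample (7.051) nearly met. The tubacin samples overlapped those of E+T and lay below those of erastin. The change was -0.28 (SE 0.09, adjusted p = 0.0439) with E+T, and this call ended in 17 of 24 alternatives. With tubacin alone the value was -0.45 (SE 0.09, adjusted p = 0.109) and with erastin alone -0.27 (SE 0.09, adjusted p = 0.113), neither past the threshold over all genes.

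SLC30A5, which pairs with SLC30A6 to carry zinc into the early secretory pathway, was lowest with E+T. Its values were 7.80, 7.93 and 7.82 in control, 7.95, 7.89 and 7.90 with erastin, 7.82, 7.75 and 7.74 with tubacin, and 7.62, 7.51 and 7.75 with E+T. The E+T samples lay below all control and erastin samples and overlapped those of tubacin. The change was -0.22 (SE 0.08, adjusted p = 0.0486) against control, a call that ended in 18 of 24 alternatives, and -0.29 (SE 0.08, adjusted p = 0.0180) against erastin, which ended in 6 of 24. Both values stayed negative in every alternative run.

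SLC30A6, which has no transport activity of its own and serves as the partner of SLC30A5, stayed between 9.59 and 9.82 on all 12 arrays and did not pass in any comparison. Its change with E+T was 0.05, with an interval of -0.13 to 0.22. SLC30A7, the other exporter of the early secretory pathway, ranged from 9.90 to 10.12. All its treated samples lay above all control samples, by little, with values of 0.09 with erastin, 0.13 with tubacin and 0.10 with E+T, and none passed (adjusted p from 0.252 to 0.50). SLC30A9, which carries zinc out of mitochondria, ranged from 9.13 to 9.39, with a change of -0.08 with E+T and an interval of -0.25 to 0.09. For these members a change as large as that of SLC30A1 with E+T lies outside the interval.

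The remaining members are known mainly from other tissues and were dim here. SLC30A3 loads zinc into synaptic vesicles of neurons and ranged from 2.71 to 3.52, above the array median on 8 of 12 arrays. SLC30A8, which loads zinc into the insulin granules of pancreatic beta cells, ranged from 1.63 to 2.20, and SLC30A10, which exports manganese rather than zinc, from 1.52 to 2.19. Both were below the array median on all 12 arrays. None of the 3 passed in any comparison, and at such values the arrays need not show a change in RNA.

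Over the family, 2 of 10 members rose and none fell with erastin, where 8.35% of all genes passed, 3.94% higher and 4.41% lower. SLC30A2 rose by at least 2-fold, against 0.545% of all genes in either direction. The erastin and control samples did not overlap for 4 of 10 members (SLC30A1, SLC30A2, SLC30A4 and SLC30A7), and for 27.0% of all genes. With tubacin alone none of the 10 passed in limma, against 0.232% of all genes, with 0.0491% at 2-fold or more. Tubacin and control did not overlap for 3 members (SLC30A4, SLC30A7 and SLC30A8), and for 15.8% of all genes. At an unadjusted p under 0.05 the tubacin count was 1 of 10, SLC30A4, against 10.2% of all genes. With E+T 2 members rose and 2 fell (31.1% of all genes passed, 14.0% higher and 17.1% lower), and the 2 that rose did so by at least 2-fold, as 5.30% of all genes changed. Samples did not overlap between E+T and control for 5 of 10 members, and for 40.8% of all genes. The number that passed in either direction with E+T, 4 of 10, is near the background, and the median of the family was 0.04, against -0.01 over all genes. The other 6 members did not pass. The 3 comparisons with control share the same 3 control samples.

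**Figure D3:**
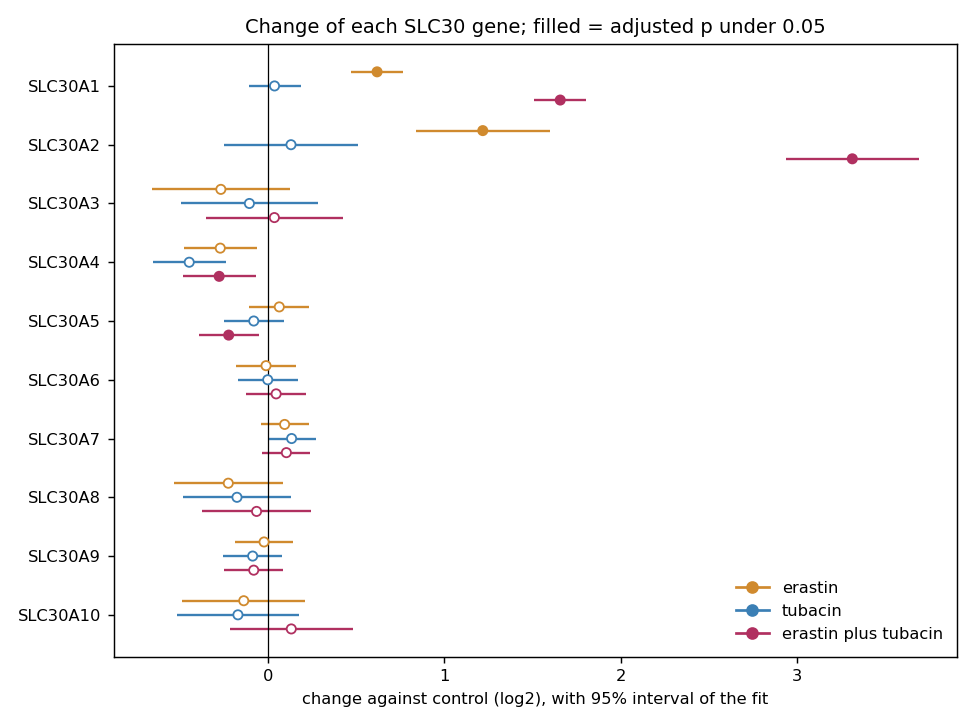
Change against control on the log2 scale for each SLC30 gene with erastin, tubacin and erastin plus tubacin, with the 95% interval of the limma fit. Filled points have an adjusted p under 0.05. SLC30A1 reaches 0.62 with erastin and 1.66 with both drugs and SLC30A2 1.22 and 3.31, and the other points lie between -0.45 and 0.13.

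Adding tubacin to erastin raised SLC30A1 by 1.04 (SE 0.07, adjusted p = 2.05e-06) and SLC30A2 by 2.09 (SE 0.17, adjusted p = 9.44e-06) and lowered SLC30A5, while the other 7 members did not pass. In this comparison 25.8% of all genes passed, 11.2% higher and 14.6% lower, and 3.26% by at least 2-fold, as both SLC30A1 and SLC30A2 did. SLC30A4 differed by -0.01 between E+T and erastin, with an interval of -0.21 to 0.20. Adding erastin to tubacin raised SLC30A1 by 1.62 (SE 0.07, adjusted p = 1.15e-07) and SLC30A2 by 3.18 (SE 0.17, adjusted p = 4.01e-07), and no other member passed. Here 28.2% of all genes passed, 12.3% higher and 15.9% lower, and 4.49% by at least 2-fold. SLC30A10 did not overlap between E+T and either drug alone, with differences of 0.27 and 0.30 that did not pass (adjusted p = 0.267 and 0.197). Samples did not overlap for 4 of 10 members against erastin and 3 of 10 against tubacin, as for 39.4% and 40.7% of all genes.

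Whether the drugs together did more than the sum of their separate changes was tested as the interaction. For SLC30A1 the separate changes summed to 0.65 and the change with E+T was 1.66, an interaction of 1.0 (SE 0.09, adjusted p = 8.44e-05). For SLC30A2 the sum was 1.35 and the change 3.31, an interaction of 1.96 (SE 0.24, adjusted p = 0.000396). On the linear scale E+T gave 2.0 times and 3.90 times what the product of the separate folds would give. For SLC30A4 the sum was -0.72 and the change -0.28, an interaction of 0.44 (SE 0.13, adjusted p = 0.0476), so that the value with both drugs was less negative than the sum of the separate values, neither of which passed. This last call ended in 13 of 21 alternatives, among them the replicate block (adjusted p = 0.0509). In all, 3 of 10 members had a positive interaction that passed and none a negative one, where 15.0% of all genes passed, 6.20% higher and 8.84% lower. At 2-fold or more the count was 2 members and 3.15% of all genes. The median interaction of the family was 0.37, against -0.001 over all genes. This median lies between the values of SLC30A8 (0.34) and SLC30A3 (0.41), which are dim here and did not pass, so it does not show a shift of the whole family.

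**Figure D4:**
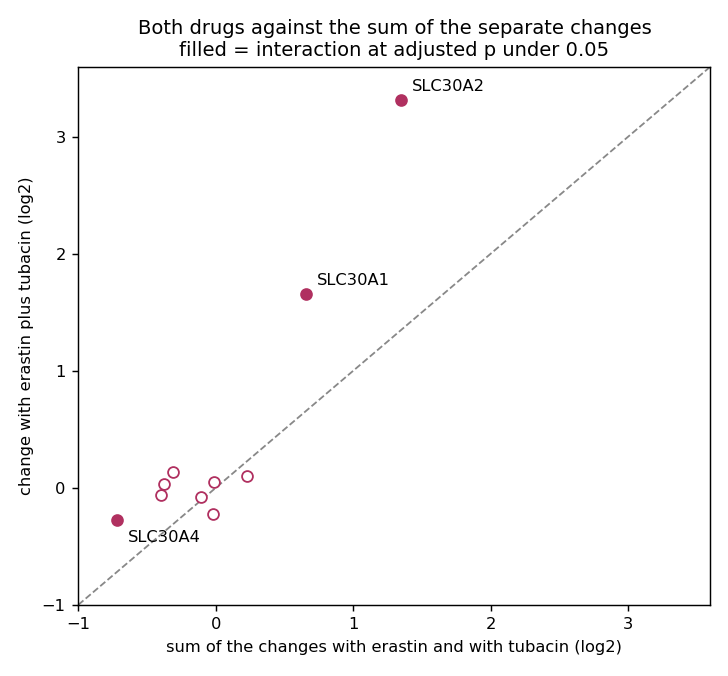
Change with erastin plus tubacin against the summed changes with single drugs, both on the log2 scale, with 1 point for each SLC30 gene. The dashed line marks equality and filled points have an interaction at adjusted p under 0.05. SLC30A2 (sum 1.35, both drugs 3.31) and SLC30A1 (0.65 and 1.66) lie well above the line.

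The other genes of zinc handling were read beside the exporters. Of 11 measured genes in a list of metallothioneins and MTF1, 8 rose with E+T and none fell, against 14.0% and 17.1% of all genes (median 1.64, against -0.01 over all genes). MT1G rose by 4.86 (SE 0.23, adjusted p = 1.63e-07) and MT1M by 4.0 (SE 0.13, adjusted p = 2.50e-08), at ranks 2 and 4 of all genes. With erastin alone 4 of the 11 rose, MT1G by 2.77 and MT1M by 1.69, where 3.94% of all genes rose. With tubacin alone none passed, and 6 had a positive interaction that passed, as 6.20% of all genes did. MTF1 itself rose by 0.32 with E+T (SE 0.09, adjusted p = 0.0143). Probes of metallothionein paralogs may cross-hybridise, so these genes may not be separate measurements.

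Of the 14 zinc importers of the SLC39 family 1 rose, 3 fell and 10 did not pass with E+T (median -0.08), so that 4 of 14 passed, a share near the 31.1% of all genes. SLC39A10 fell by 0.94 (SE 0.13, adjusted p = 0.000194) with E+T and by 0.88 (SE 0.13, adjusted p = 0.00204) with erastin alone. SLC39A3 fell by 0.92 (SE 0.10, adjusted p = 3.46e-05) with E+T, and SLC39A11 rose by 0.34 (SE 0.11, adjusted p = 0.0375). SLC39A10, like SLC30A1, is known as an MTF1 target, but, in mouse and zebrafish, as a gene that MTF1 lowers. Any part of MTF1 in the changes of these genes was not tested.

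Of 13 measured zinc enzymes of the secretory pathway and cell surface, which depend on zinc brought in by exporters such as SLC30A5 and SLC30A7, 4 rose and 3 fell with E+T (median 0.18), against 14.0% and 17.1% of all genes. The metalloprotease MMP14 rose by 0.95 and the sheddase ADAM17 by 0.89, while the nucleotide pyrophosphatase ENPP1 fell by 0.83 and the carbonic anhydrase CA12 by 0.80. The importers SLC39A8 and SLC39A14 were counted again among 6 manganese carriers read beside SLC30A10. Of these 6, SLC40A1 (0.38) and the Golgi pump ATP2C1 (0.25) rose with E+T and 4 did not pass, a share near the 31.1% of all genes. This count of 2 was lower in 11 of 24 alternatives, and it was 0 without control replicate 3, E+T replicate 2 or E+T replicate 3 and 1 without control replicate 1, control replicate 2 or E+T replicate 1. The plot of the lists sets these values side by side.

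**Figure D5:**
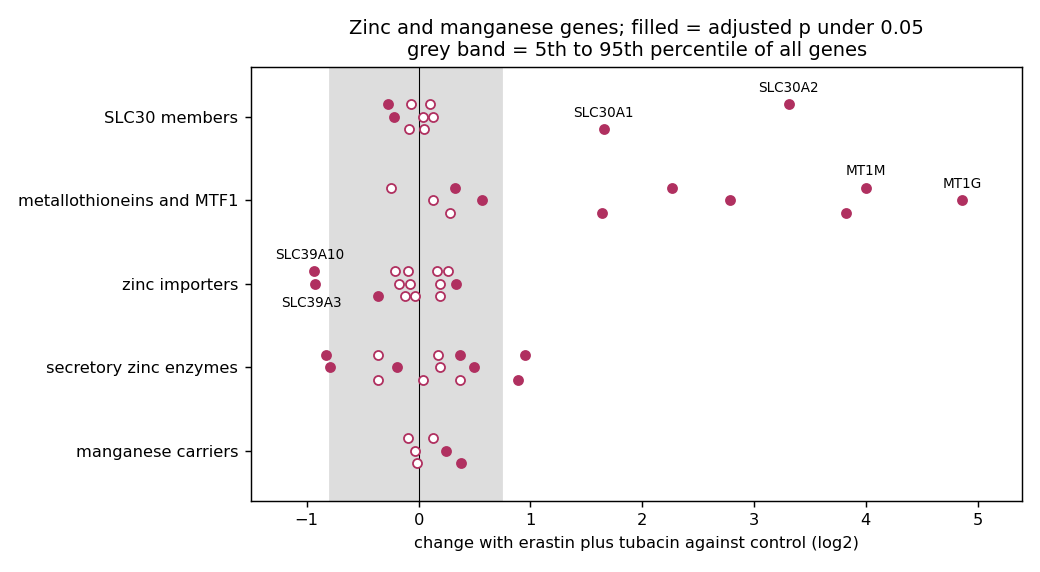
Change with erastin plus tubacin against control (log2) for each measured gene of 5 lists, with filled points at adjusted p under 0.05 and a grey band from the 5th to the 95th percentile of all genes (-0.79 to 0.75). SLC30A1 and SLC30A2 lie above the band with 6 metallothioneins, MMP14 and ADAM17, SLC39A10, SLC39A3, ENPP1 and CA12 lie below it, CA12 only just, and the other 8 SLC30 genes lie within it.

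The genes whose pattern over the 12 samples came closest to each riser were listed by the root mean square difference, with each gene set to its own control mean. For SLC30A1 these were MXD1 (0.11), MT1X (0.13), SLC2A1 (0.13), IRAK2 (0.14) and KLF5 (0.15), against a root mean square of 0.88 for the changes of SLC30A1 itself. For SLC30A2 they were KLF2 (0.27), TCP11L2 (0.28), MT1F (0.37), ATF3 (0.38) and KLHL24 (0.47), against 1.78 for its own changes. A metallothionein was among the 5 nearest genes for each of them, and the other genes named are on none of the lists read here. How often a metallothionein would come so near was not tested, and neither was shared control.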

How the data were processed

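Human Gene 2.1 ST arrays measured RNA of HCC38 cells in 12 samples. The authors ran RMA on the probe intensities and deposited the resulting log2 values. The software version was not given in the sources used here. Of 53617 probe sets, 23866 carry exactly 1 symbol in GEO's platform annotation, 1852 carry several and were not used, and 27899 are not listed there. The probe set of highest mean stood for each gene, which left 22392 genes without a filter on dim genes.

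The test was that of limma 3.58.1 (R 4.3.3), two-sided, in 1 fit of the 4 group means with eBayes moderation and Benjamini-Hochberg adjustment across the 22392 genes. The fit was tested on simulated data. The 6 comparisons were each treatment against control, E+T against each drug, and the interaction. The members, lists and tests were chosen with earlier results of these data known, and the paper names SLC30A1, SLC30A2, MT1G, MT1H and MT1M from these arrays, so their calls are not independent evidence. Named genes are all members, at most 2 rises and 2 falls from each list with E+T, and the 5 genes nearest to each member that changed at least 2-fold. MT1A, ALPPL2 and CA9 are not analysed here. The number of arrays limits the precision, and the members' SD within a group was 0.03 to 0.41 (median 0.08). The alternatives were a dim filter, every probe set, the mean of probe sets, further quantile or cyclic loess normalization, reference gene scaling, moderation with trend and robust settings, a fit of just the groups compared, the replicate block, a threshold of 0.01, the methods' t-test, and leaving out each sample.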

Additional observations from a re-analysis of the deposited data

Results flagged for a closer look

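For 3 of the 10 SLC30 genes the change with erastin differed with and without tubacin, by a test of that difference in limma that 15.0% of all genes passed. For SLC30A4 the change with erastin itself passed neither without tubacin (-0.27, adjusted p = 0.113) nor with it (0.17, adjusted p = 0.224). The interaction was 1.0 on the log2 scale for SLC30A1 (3 of 3 E+T samples above every other sample), 1.96 for SLC30A2 (likewise 3 of 3) and 0.44 for SLC30A4 (adjusted p = 0.0476, a call that ended in 13 of 21 alternatives). The interaction of SLC30A1 ranged from 0.77 to 1.04 and that of SLC30A2 from 1.74 to 2.19 over 21 alternatives each, and all passed. That of SLC30A4 ranged from 0.21, when scaled to reference genes (adjusted p = 0.458), to 0.495. Of the 7 reference genes measured, 2 had a positive interaction that passed, so the value of 0.21 rests on an unstable reference.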

How the results depend on the processing

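SLC30A1 rose with erastin and with E+T in all 24 alternatives (0.585 to 0.68 and 1.56 to 1.70), and SLC30A2 with E+T in all 24 (3.21 to 3.38). With erastin SLC30A2 ranged from 0.995 to 1.40, and its call ended only by the methods' t-test with Benjamini-Hochberg adjustment (adjusted p = 0.112), which left 1 member called. With tubacin, trend and robust moderation called 1 member (SLC30A4, adjusted p = 0.0304, adjusted p over the alternatives being 0.0304 to 0.517) and the unadjusted t-test 2 (SLC30A4 and SLC30A7). With E+T 2 members in place of 4 were called under quantile or cyclic loess normalization, with only the groups compared, by the adjusted t-test and at a threshold of 0.01, and 2 to 3 when any 1 sample was left out. The 2 lost were SLC30A4 (adjusted p up to 0.188) and SLC30A5 (up to 0.172), also without single samples of the groups not compared. SLC30A4 kept its call without E+T replicate 1 and SLC30A5 without E+T replicate 3. SLC30A10, with an interaction of 0.44, passed without control replicate 3 (0.63). The replicate numbers did not pair the samples (18 correlations of deviations, -0.06 to 0.05; 1 of 12 samples matched its own number best). With the replicate block 3 members were called with E+T, SLC30A5 not among them, and 23 in place of 52 genes with tubacin. Scaling to the 7 reference genes measured shifted the median of all genes by -0.10 with E+T and by -0.23 in the interaction, and turned no member's called direction. The reference genes were not stable themselves. With E+T 2 of the 7 rose and 3 fell, ACTB by 1.19, and 2 had a positive interaction that passed. Over all genes the count for erastin was 1869, and 556 (scaled to reference genes) to 4217 (unadjusted t-test) in the alternatives. That for tubacin was 0 by limma with only the groups compared and by the adjusted t-test, 15 to 41 without 1 sample, with 2290 at an unadjusted p under 0.05. That for the interaction was 3369, and 1808 at a threshold of 0.01.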

Other observations

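Of the metallothionein promoters in the RefSeq table, the windows of MT1H and MT2A held 8 MRE core matches each, those of MT1X 4, and those of MT1B and MT4 3 each, while the window of MTF1 held none. MT1B and MT4 hold matches and did not pass with E+T. MT1B was below the array median on all 12 arrays, and at such values a change in RNA need not show. MT1H, however, had a control mean of 2.34, near the 2.36 of MT1B, and rose with E+T. MT4 was above the array median on all 12 arrays but never above the upper quartile. Why MT1B and MT4 did not pass was not tested. No window was found for MT1E, MT1F, MT1G or MT1M, which rose with E+T, and the link of matches to the rises was not tested. The core of the antioxidant response element, searched as TGACNNNGC on both strands, was in the windows of SLC30A1, SLC30A5 and SLC30A9. It was also in 1 window of SLC30A3 and 1 of SLC30A10, but not in the other window of either gene, and in 13.3% of all windows. Any part of these matches in the changes was not tested. The element TGATGNAA, bound by ATF4, was in no window of the family and in 3.62% of all windows.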
